A study of Homo sapiens with 14 samples.

Results

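The UGT2B genes encode UDP-glucuronosyltransferases of the endoplasmic reticulum that attach glucuronic acid to steroids, bile acids and drugs. Members were chosen by name: a probe was taken where its platform annotation gave UGT2B4, UGT2B7, UGT2B10, UGT2B11, UGT2B15, UGT2B17 or UGT2B28, whatever its values. The rule found 5 of the 7 genes among 12393 genes named on the arrays, with 9 of 47323 distinct probes, and all 9 were kept among the 24894 probes tested. UGT2B10 and UGT2B28 had 1 probe each, UGT2B11 and UGT2B15 had 2 each and UGT2B17 had 3. UGT2B4 and UGT2B7 had no probe named for them here and were not analysed here. The members are close paralogues, so each probe is described by itself, and signal from a like transcript of another member cannot be told apart from signal of the named gene.

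Glucuronidation makes an androgen water soluble and inactive and lets it leave the cell. UGT2B15 and UGT2B17 conjugate dihydrotestosterone and its reduced metabolites and are the main androgen glucuronidating enzymes of prostate epithelium, where androgens are known to lower their transcripts. UGT2B28 also accepts steroids, UGT2B10 is best known for joining glucuronic acid to the nitrogen of amines such as nicotine, and for UGT2B11 few substrates are known. UGT2B7, with its broad range of substrates that includes opioids, and UGT2B4, which takes bile acids, complete the set named in the rule.

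RNA was measured on 14 Illumina BeadChip arrays in 2 prostate cancer lines, LNCaP, an androgen-sensitive line from a lymph node metastasis, and LNCaP-abl, a derivative grown without androgens. LNCaP was kept in RPMI-1640 with 10% fetal bovine serum, and LNCaP-abl in phenol-red free RPMI-1640 with 10% charcoal-stripped serum, so line and medium cannot be told apart. Dilazep, a drug that blocks adenosine uptake, was given at 50 µM for 48 h, and each line had 3 arrays of it beside 2 arrays with water (H2O) and 2 with DMSO. The series title names GATA2, a transcription factor of prostate cells, as what dilazep was used against. The control arrays carry a treatment text on bufalin, another compound, so a difference between experiments cannot be told apart from the change with dilazep. Nothing in the labels says that replicates were separate cultures, and the spread behind the p-values may therefore be technical only.

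The family lies in one cluster. RefSeq places the 7 genes on chromosome 4 of GRCh38.p14 in the order UGT2B17, UGT2B15, UGT2B10, UGT2B7, UGT2B11, UGT2B28 and UGT2B4, over 0.989 Mb from 68537173 to 69526014. RefSeq promoter sequences were at hand for UGT2B7, UGT2B10, UGT2B11 and UGT2B15. Of these, 3 have probes on the arrays, and the 120 bases that end just before the start site of each in the promoter table are shown because their transcripts moved together with dilazep, as described further on. They lie at chr4:68815874-68815993 on the plus strand for UGT2B10, at chr4:69214749-69214868 on the minus strand for UGT2B11 and at chr4:68670653-68670772 on the minus strand for UGT2B15. That start site is the outer end of the annotated gene for UGT2B10 and UGT2B15. For UGT2B11 it lies 10.2 kb inside the gene, and for UGT2B7 45.1 kb inside, so both stand before an internal start. Capitals mark TATTTAC, a form of the forkhead motif, which was picked after the promoters had been read.
UGT2B10: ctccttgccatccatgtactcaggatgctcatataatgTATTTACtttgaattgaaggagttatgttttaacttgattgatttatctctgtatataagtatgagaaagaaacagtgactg
UGT2B11: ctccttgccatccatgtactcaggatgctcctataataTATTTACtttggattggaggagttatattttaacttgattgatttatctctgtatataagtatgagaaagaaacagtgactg
UGT2B15: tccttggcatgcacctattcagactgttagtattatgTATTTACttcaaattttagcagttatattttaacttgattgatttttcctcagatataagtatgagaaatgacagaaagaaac

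The 250 bases before the start site of UGT2B10 and UGT2B11 were 90.2% identical, against 70.6% for UGT2B10 and UGT2B15 and 71.4% for UGT2B11 and UGT2B15. UGT2B7, which has no probe here, was 61.3% to 65.1% identical to the other three. The marked TATTTAC begins at position -82 of UGT2B10 and UGT2B11 and at position -83 of UGT2B15, counted back from that start site. On both strands of the 250 bases it occurred 2 times in UGT2B10, 2 times in UGT2B11 and 1 time in UGT2B15. It was not found in that window of UGT2B7, and 2.39% of 35116 RefSeq promoters of the same length hold it. TGTTTAC, the other common forkhead form, was found 1 time in UGT2B15, and 2.98% of all promoters hold it. TATAAA was found 3 times in UGT2B10 and 2 times in UGT2B11, and 10.7% of promoters hold it. TGTTTGC, present in 3.23% of promoters, and the HNF1 motif GTTAAT, in 6.23%, were in none of these 4 windows. A match describes letters only and does not show that a factor binds there.

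Between 17925 and 19856 probes had a detection p-value under 0.05 on an array, and the median signal of an array lay between 144.5 and 154.5. Of 8 genes with a named probe that mark luminal prostate epithelium, 7 were detected on all 14 arrays. The exception was KLK3, which encodes prostate-specific antigen, detected on 7 of 7 LNCaP arrays and on 4 of 7 LNCaP-abl arrays. Because UGT2B genes are known for their high level in liver, hepatocyte markers were looked at too. ALB was detected on all 14 arrays at group means between 7.39 and 7.56 on the log2 scale, APOA1 on 3 LNCaP and 1 LNCaP-abl array and TTR on 4 and 3. In bulk RNA, fewer cells of a type and less RNA per cell cannot be told apart.

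Levels below are log2 of background-corrected, quantile-normalized signal, and they order the arrays of 1 probe, not 1 probe against another. Of the 9 probes, 8 were detected on 14 of 14 arrays. The exception was the UGT2B15 probe ILMN_1739624, detected on 9 of 14. All changes are dilazep minus the mean of the H2O and DMSO group means, and adjusted p-values are limma's with Benjamini-Hochberg adjustment over 24894 probes.

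UGT2B17 stood higher in LNCaP-abl controls than in LNCaP controls, and it fell with dilazep in both lines, much further in LNCaP-abl. Its probe ILMN_2373670 read 9.05 and 9.08 on the LNCaP H2O arrays, 9.38 and 9.23 on the DMSO arrays and 8.69, 8.84 and 8.79 with dilazep. In LNCaP-abl it read 11.66 and 11.55 with H2O, 11.56 and 11.45 with DMSO and 8.68, 8.77 and 8.82 with dilazep. The dilazep arrays of the 2 lines thus lay within the same narrow band, while the control arrays of LNCaP-abl stood apart above all others. The change was -0.41 in LNCaP (SE 0.09, limma adjusted p = 0.00452) and -2.80 in LNCaP-abl (SE 0.09, limma adjusted p = 4.13e-10), a 6.97-fold fall. Scaling each array by its median in place of quantile normalization gave -0.32 in LNCaP (limma adjusted p = 0.0527), and the H2O arrays alone as the control gave -0.29 (limma adjusted p = 0.0722), so that call was lost under both.

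A second UGT2B17 probe, ILMN_1808677, showed the same picture with less contrast between the lines. LNCaP read 10.83 and 10.57 with H2O, 10.67 and 10.63 with DMSO and 9.84, 9.89 and 9.99 with dilazep. LNCaP-abl read 12.26 and 12.29 with H2O, 12.32 and 12.22 with DMSO and 10.07, 10.15 and 10.17 with dilazep. Dilazep and control arrays did not overlap in either line, and the highest dilazep array of LNCaP-abl lay below the lowest control array of LNCaP. The change was -0.77 in LNCaP (SE 0.10, limma adjusted p = 0.000105) and -2.14 in LNCaP-abl (SE 0.10, limma adjusted p = 5.51e-09). In deposited signal units the LNCaP-abl H2O mean of ILMN_1808677 was 5317 ± 33.2 (SD, n = 2) and its dilazep mean 1143 ± 107 (SD, n = 3).

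For the third UGT2B17 probe, ILMN_1752214, LNCaP read 9.93 and 9.87 with H2O, 9.82 and 9.83 with DMSO and 9.07, 8.94 and 8.62 with dilazep. LNCaP-abl read 11.52 and 11.64 with H2O, 12.11 and 11.41 with DMSO and 9.47, 9.55 and 9.73 with dilazep. Dilazep and control arrays did not overlap in either line, although the LNCaP-abl dilazep arrays stood above those of LNCaP. The change was -0.98 in LNCaP (SE 0.16, limma adjusted p = 0.000601) and -2.08 in LNCaP-abl (SE 0.16, limma adjusted p = 7.17e-07).

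UGT2B15, the neighbour of UGT2B17 on the chromosome, fell in both lines at the probe that every array detected. ILMN_2048414 read 10.06 and 9.78 in LNCaP with H2O, 9.70 and 9.97 with DMSO and 8.22, 7.79 and 7.77 with dilazep. In LNCaP-abl it read 10.51 and 10.92 with H2O, 11.13 and 10.52 with DMSO and 7.95, 8.20 and 8.33 with dilazep. The dilazep arrays of both lines lay in overlapping ranges, well below every control array. The change was -1.95 in LNCaP (SE 0.18, limma adjusted p = 1.18e-05) and -2.61 in LNCaP-abl (SE 0.18, limma adjusted p = 2.84e-07).

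The other UGT2B15 probe, ILMN_1739624, was dim and has only a bound in one group. It read 7.88 and 7.36 in LNCaP with H2O, 6.91 and 7.54 with DMSO and 5.04, 5.72 and 5.11 with dilazep, where 1 of 3 arrays detected it. In LNCaP-abl it read 6.30 and 6.61 with H2O and 7.13 and 6.46 with DMSO, and 0 of 3 dilazep arrays detected it. Its level in LNCaP-abl with dilazep was therefore at least 2.42-fold lower than in the controls (fitted limma adjusted p = 3.11e-05), set against the lowest signal among detected probes of each array. The LNCaP change was -2.14 (SE 0.22, limma adjusted p = 2.86e-05), but it shrank to -0.90 without background correction and to -0.59 in the authors' processed values, both still past the threshold. In LNCaP-abl the fitted change of -1.88 shrank to -0.70, to -0.42 and, with an offset of 50, to -1.13 under such settings.

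UGT2B28, a steroid-conjugating member, was lower in LNCaP-abl than in LNCaP and fell with dilazep in both. ILMN_1781859 read 10.18 and 10.04 in LNCaP with H2O, 9.93 and 9.98 with DMSO and 7.98, 8.21 and 8.40 with dilazep. LNCaP-abl read 9.39 and 9.42 with H2O, 8.92 and 9.40 with DMSO and 7.14, 6.78 and 6.94 with dilazep. All 4 groups of a line and treatment kept apart, with LNCaP-abl below LNCaP both with and without dilazep. The change was -1.84 in LNCaP (SE 0.14, limma adjusted p = 2.84e-06) and -2.33 in LNCaP-abl (SE 0.14, limma adjusted p = 8.88e-08). In the authors' processed values the LNCaP-abl change of UGT2B28 was -1.30.

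UGT2B10 crossed over between the lines. ILMN_1742444 read 9.73 and 9.75 in LNCaP with H2O, 9.62 and 9.52 with DMSO and 8.06, 8.32 and 8.37 with dilazep. LNCaP-abl read 10.22 and 10.17 with H2O, 10.24 and 9.96 with DMSO and 7.49, 7.59 and 7.89 with dilazep. The LNCaP-abl arrays were thus the highest among controls and the lowest with dilazep, with no overlap on either side. The change was -1.41 in LNCaP (SE 0.12, limma adjusted p = 8.08e-06) and -2.49 in LNCaP-abl (SE 0.12, limma adjusted p = 1.48e-08).

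The 2 UGT2B11 probes fell alike with dilazep and differed between the lines. ILMN_1810233 read 11.25 and 11.06 in LNCaP with H2O, 11.08 and 10.94 with DMSO and 9.75, 9.47 and 9.70 with dilazep. In LNCaP-abl it read 11.96 and 11.88 with H2O, 12.55 and 11.98 with DMSO and 9.84, 9.71 and 9.67 with dilazep. Its control arrays were higher in LNCaP-abl than in LNCaP, and its dilazep arrays overlapped. The change was -1.44 in LNCaP (SE 0.14, limma adjusted p = 1.35e-05) and -2.35 in LNCaP-abl (SE 0.14, limma adjusted p = 5.82e-08).

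ILMN_2162819, also annotated to UGT2B11, read 10.34 and 10.64 in LNCaP with H2O, 10.65 and 10.66 with DMSO and 8.96, 8.91 and 9.07 with dilazep. In LNCaP-abl it read 10.14 and 10.22 with H2O, 9.99 and 10.09 with DMSO and 7.95, 8.03 and 7.99 with dilazep. Here every LNCaP-abl array lay below every LNCaP array of the same treatment, the reverse of the other probe's controls. The change was -1.59 in LNCaP (SE 0.10, limma adjusted p = 5.85e-07) and -2.12 in LNCaP-abl (SE 0.10, limma adjusted p = 7.98e-09).

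**Figure D1:**
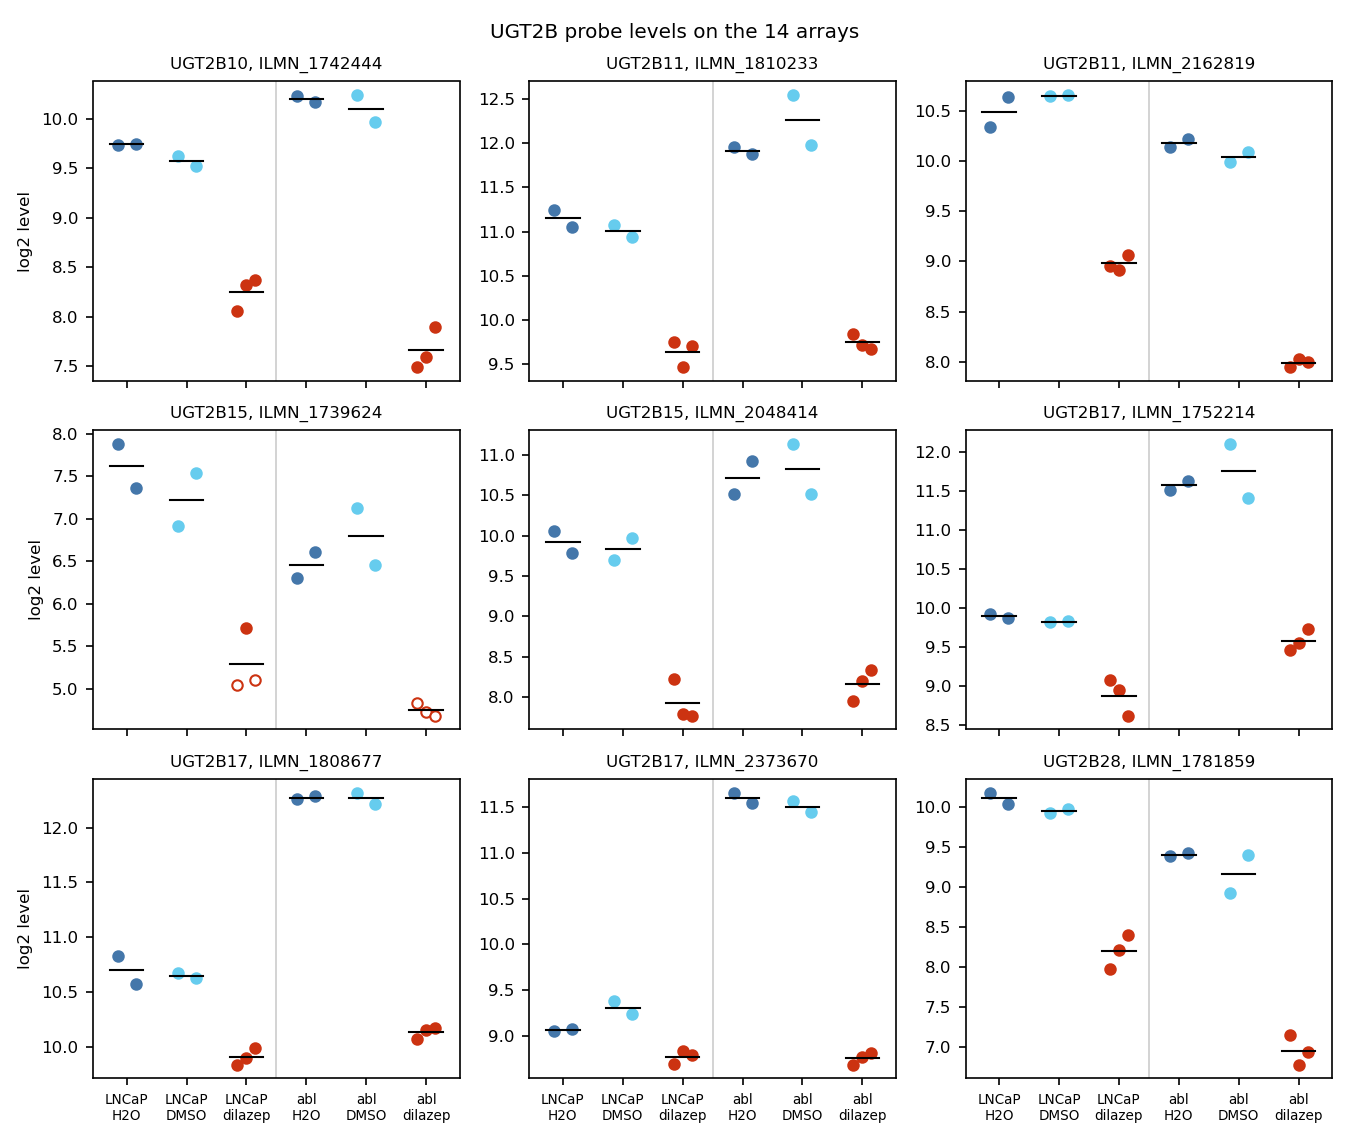
The log2 level of each of the 9 UGT2B probes is plotted for every array, with H2O arrays in dark blue, DMSO arrays in light blue and dilazep arrays in red, LNCaP left and LNCaP-abl right of the grey line. Bars are group means, open circles are arrays that did not detect the probe, and each panel has its own vertical axis. No dilazep array reaches a control array of its line, but the share of all tested probes that separate so was not counted.

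Set together, every UGT2B probe was lower with dilazep than in the controls, in both lines. As said above, a difference between experiments cannot be told apart from this change. In LNCaP 9 of 9 probes were called lower at an adjusted p under 0.05 (limma), where 16.3% of all tested probes were called lower, 15.7% higher and 32.0% in either direction. Their median log2 change was -1.44, from -2.14 to -0.41, against 0.01 over all tested probes. A fall of at least 1 on the log2 scale was called for 6 of 9, and for 3.58% of all tested probes. The 3 UGT2B17 probes had the 3 smallest changes of the family in LNCaP.

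In LNCaP-abl 9 of 9 probes were called lower as well (limma), where 17.3% of all tested probes were called lower, 18.6% higher and 35.9% in either direction. Their fitted median log2 change was -2.33, from -2.80 to -1.88, against 0.02 over all tested probes. All 9 fell by at least 1, which was called for 5.11% of all tested probes. Median scaling in place of quantile normalization shifted the median change of all probes in LNCaP-abl by -0.16, and the share of calls that were higher went from 51.9% to 35.5%. Under that scaling 9 of 9 UGT2B probes were called lower too. Of all 24894 tested probes it called 5506 lower, against 4298 in the main fit. The DMSO array 1 of LNCaP-abl was the highest of its 4 control arrays at 6 of the 9 probes and the lowest at 2. Leaving it out, as leaving out any other array in turn, left 9 of 9 probes lower in each line. The luminal markers went both ways. Of 8 tested, limma called 1 higher and 2 lower with dilazep in LNCaP, where 32.0% of all tested probes were called in either direction. In LNCaP-abl it called 3 higher and 3 lower, where 35.9% were called. KLK3 changed by -0.34 in LNCaP (limma adjusted p = 0.172) and was at least 2.14-fold lower with dilazep in LNCaP-abl (fitted limma adjusted p = 1.48e-05), where 0 of 3 dilazep arrays detected it. Among markers of other cell types, neuroendocrine ENO2 rose by 2.80 in LNCaP (limma adjusted p = 2.29e-08) and by 0.58 in LNCaP-abl (limma adjusted p = 0.00164), where median scaling gave 0.36 (limma adjusted p = 0.0592). Macrophage CD68 rose by 1.01 in LNCaP (limma adjusted p = 0.00131), and its 0.54 in LNCaP-abl (limma adjusted p = 0.039) was lost under median scaling and without H2O replicate 3, DMSO replicate 1 or any dilazep array, with values from 0.38 to 0.57. Hepatocyte TTR, detected on 0 of 4 LNCaP-abl control arrays, was at least 1.34-fold higher with dilazep there (fitted limma adjusted p = 0.00696). Neuroendocrine CHGA was also detected on 0 of 4 of these control arrays and on 3 of 3 LNCaP-abl dilazep arrays. There it was at least 1.23-fold higher with dilazep, which did not pass (fitted limma adjusted p = 0.0689). In LNCaP it did not pass either. Fibroblast COL1A1 (-0.39 and -0.08) passed in neither line, SYP was detected on 0 arrays, and ALB had -0.04 and 0.11. No basal marker had a named probe, and CD68 was the only immune marker with one. The part of these markers in the UGT2B changes was not tested.

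**Figure D2:**
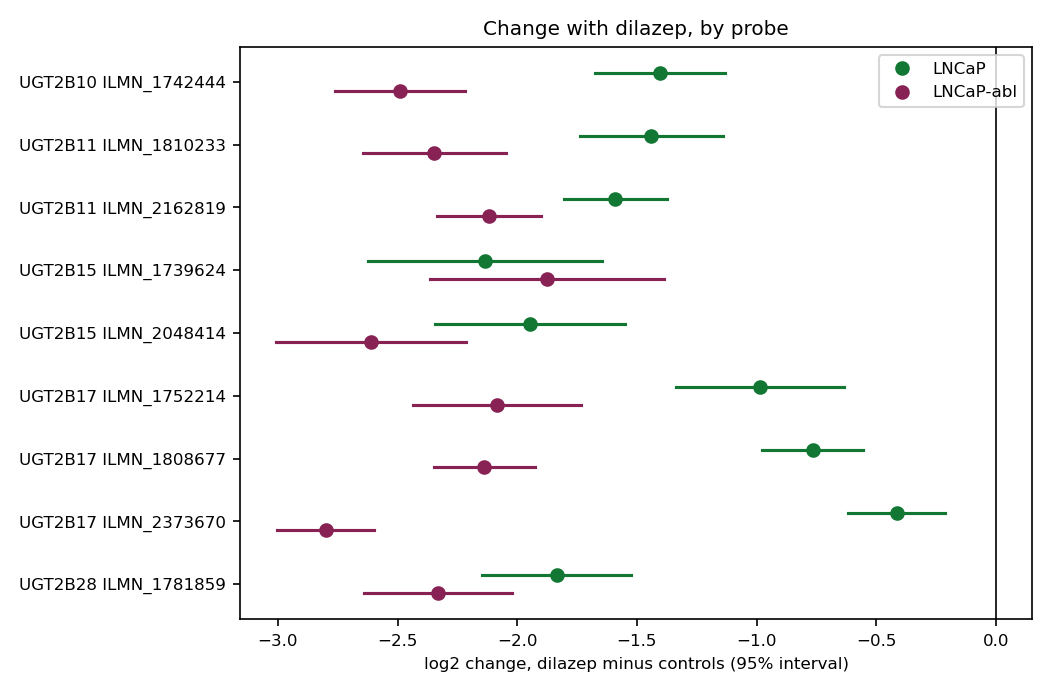
The log2 change with dilazep is plotted for each UGT2B probe in LNCaP (green) and LNCaP-abl (purple), with 95% intervals of the limma fit, and the vertical line marks no change. All 18 intervals lie below 0, and the 2 lines differ most at the UGT2B17 probe ILMN_2373670, with -0.41 against -2.80.

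Whether the fall differed between the lines was tested by the difference of the changes, LNCaP-abl minus LNCaP. It was called negative for 6 of 9 probes (limma), that is a deeper fall in LNCaP-abl, where 11.3% of all tested probes were called lower and 22.6% in either direction. The fitted median difference was -0.91, with the dim UGT2B15 probe at its fitted value, against 0.01 over all tested probes. UGT2B17 had the largest differences, -2.39 at ILMN_2373670 (SE 0.13, limma adjusted p = 2.88e-07), -1.37 at ILMN_1808677 (SE 0.14, limma adjusted p = 3.09e-05) and -1.10 at ILMN_1752214 (SE 0.23, limma adjusted p = 0.00488). UGT2B10 differed by -1.09 (SE 0.18, limma adjusted p = 0.00119). The UGT2B11 probes differed by -0.91 at ILMN_1810233 (limma adjusted p = 0.00596) and by -0.53 at ILMN_2162819 (limma adjusted p = 0.0183), calls that H2O alone as the control ended for the first (-0.66, limma adjusted p = 0.0729) and DMSO alone for the second (-0.37, limma adjusted p = 0.165). The authors' processed values also ended the second, with -0.21 (limma adjusted p = 0.0811).

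The other 3 probes did not pass the test of the difference. UGT2B15 gave -0.66 at ILMN_2048414 (95% interval -1.22 to -0.10, limma adjusted p = 0.0873). At the dim ILMN_1739624 the LNCaP-abl change has only a bound, so no size is given for the difference (fitted limma adjusted p = 0.623). UGT2B28 gave -0.50 (95% interval -0.94 to -0.06, limma adjusted p = 0.101). Under median scaling both ILMN_2048414 (-0.99, limma adjusted p = 0.0094) and UGT2B28 (-0.79, limma adjusted p = 0.0132) passed, and that scaling shifted the median of all probes by -0.19 and the share of calls that were higher from 50.2% to 26.0%. ILMN_2048414 also passed without background correction, with an offset of 50, in the authors' processed values and with an intensity trend in the variance, at -0.67 to -0.66 (limma adjusted p from 0.00982 to 0.0347). It passed without LNCaP-abl DMSO replicate 3 too (-0.82, limma adjusted p = 0.0369). UGT2B28 passed with the intensity trend (-0.50, limma adjusted p = 0.0499) and without LNCaP-abl DMSO replicate 1 (-0.62, limma adjusted p = 0.0361). In the authors' processed values, however, the UGT2B28 difference turned sign, to 0.034, and did not pass.

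The control arrays of the lines differed at every UGT2B probe, in both directions. In LNCaP-abl 6 of 9 probes were called higher and 3 lower than in LNCaP (limma), where 18.3% of all tested probes were called higher, 17.7% lower and 36.0% in either direction. The median difference was 0.90, against 0.00067 over all tested probes. UGT2B17 was higher in LNCaP-abl at its 3 probes, by 2.37 at ILMN_2373670 (SE 0.09, limma adjusted p = 6.5e-10), 1.60 at ILMN_1808677 (SE 0.09, limma adjusted p = 3.58e-08) and 1.80 at ILMN_1752214 (SE 0.15, limma adjusted p = 1.35e-06). UGT2B10 was higher by 0.49 (SE 0.12, limma adjusted p = 0.00504), a call that H2O alone as the control ended (0.46, limma adjusted p = 0.0606). UGT2B28 was lower by 0.75, with a log2 difference of -0.75 (SE 0.13, limma adjusted p = 0.000758).

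Both genes with a pair of probes gave opposite directions. UGT2B11 was 1.01 higher in LNCaP-abl at ILMN_1810233 (SE 0.13, limma adjusted p = 5.21e-05) and differed by -0.46 at ILMN_2162819 (SE 0.09, limma adjusted p = 0.00178). UGT2B15 was 0.90 higher at ILMN_2048414 (SE 0.17, limma adjusted p = 0.00118) and differed by -0.80 at ILMN_1739624 (SE 0.21, limma adjusted p = 0.00948). With H2O alone as the control ILMN_2162819 gave -0.31 (limma adjusted p = 0.111), and with DMSO alone ILMN_1739624 gave -0.43 (limma adjusted p = 0.341). No direction is therefore given for UGT2B11 or UGT2B15 as genes between the lines.

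With dilazep the lines were closer at the UGT2B17 probes. Of 9 UGT2B probes 1 was called higher in LNCaP-abl, 3 were called lower and 5 did not pass (limma), where 20.6% of all tested probes were called higher, 20.9% lower and 41.5% in either direction. The fitted median difference was -0.02, with the dim UGT2B15 probe at its fitted value, against 0.01 over all tested probes. UGT2B17 differed by -0.02 at ILMN_2373670 (95% interval -0.23 to 0.20, limma adjusted p = 0.916), by 0.23 at ILMN_1808677 (95% interval 0.0012 to 0.45, limma adjusted p = 0.102) and by 0.70 at ILMN_1752214 (95% interval 0.33 to 1.08, limma adjusted p = 0.00555). The last was the probe called higher, and median scaling gave it 0.44 (limma adjusted p = 0.0571). ILMN_1808677 was called higher too without background correction (0.20, limma adjusted p = 0.0384), in the authors' processed values (0.19, limma adjusted p = 0.0202) and with an intensity trend in the variance (0.23, limma adjusted p = 0.0348).

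Those called lower with dilazep were UGT2B28, by -1.24 (SE 0.15, limma adjusted p = 3.48e-05), the UGT2B11 probe ILMN_2162819, by -0.99 (SE 0.11, limma adjusted p = 1.14e-05), and UGT2B10, by -0.59 (SE 0.13, limma adjusted p = 0.00341). In the authors' processed values these differences shrank to -0.57, -0.62 and -0.31, and each was still called lower. The UGT2B11 probe ILMN_1810233 differed by 0.11 (95% interval -0.21 to 0.43, limma adjusted p = 0.607) and the UGT2B15 probe ILMN_2048414 by 0.23 (95% interval -0.19 to 0.66, limma adjusted p = 0.374). The dim UGT2B15 probe, detected on 1 of 3 LNCaP and 0 of 3 LNCaP-abl dilazep arrays, gives no difference between the lines here. Median scaling shifted the median of all probes in this comparison by -0.20 and the share of calls that were higher from 49.7% to 32.5%. The comparisons of this and the preceding paragraphs share arrays, so their values stand side by side and are not independent of each other.

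**Figure D3:**
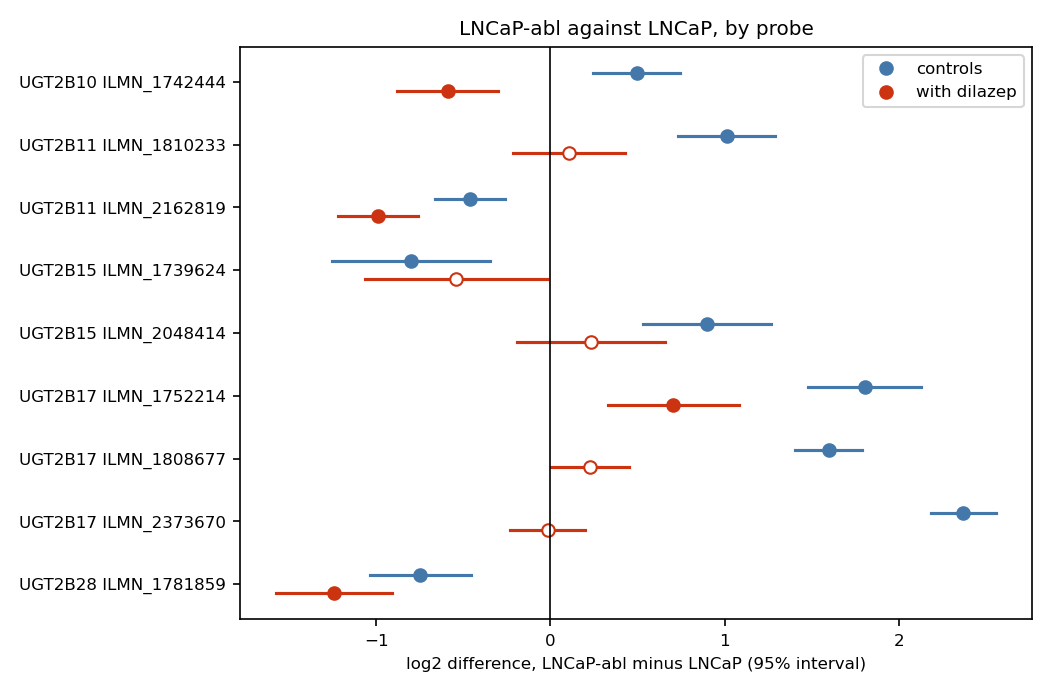
The log2 difference LNCaP-abl minus LNCaP is plotted for each UGT2B probe among controls (blue) and with dilazep (red), with 95% intervals, and open circles mark differences that did not pass an adjusted p of 0.05. UGT2B17 at ILMN_2373670 goes from 2.37 among controls to -0.02 with dilazep, and the probe pairs of UGT2B11 and of UGT2B15 fall on opposite sides of 0 among controls.

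No UGT2B probe was called between the vehicles with both lines averaged. DMSO minus H2O as a mean of both lines lay between -0.20 and 0.10 at the 9 probes, and limma called 0 of 9 at an adjusted p under 0.05 and 0 of 9 at an unadjusted p under 0.05. Over all 24894 probes limma called 0 (0% of those tested), with 1117 at an unadjusted p under 0.05. Neither does this show that the vehicles act alike, since UGT2B28 had a 95% interval of the difference that reached -0.49. The mean also lets opposite differences of the lines cancel. DMSO lay below H2O in both lines at UGT2B10, UGT2B28 and ILMN_1808677, and the signs were opposite at the other probes. At ILMN_1739624 the H2O and DMSO means were 7.62 and 7.23 in LNCaP, and 6.45 and 6.79 in LNCaP-abl. The vehicles were not tested within a line.

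The order of the 6 groups differed by gene. For the 3 UGT2B17 probes, ILMN_1810233 of UGT2B11 and ILMN_2048414 of UGT2B15, the LNCaP-abl control groups stood highest, then the LNCaP control groups, then both dilazep groups. For UGT2B28 and ILMN_2162819 the LNCaP control groups stood highest, then those of LNCaP-abl, then LNCaP with dilazep, and LNCaP-abl with dilazep was lowest. The dim UGT2B15 probe had the control groups in that order too, but its 2 dilazep groups were at or near background and are not ranked. UGT2B10 began like the first set and ended like the second. Neighbours in the order that did not separate by their array ranges were mostly the H2O and DMSO groups of a line, and for ILMN_2373670, ILMN_1810233 and ILMN_2048414 also the dilazep groups of the 2 lines. At the dim UGT2B15 probe the control groups of both lines overlapped too.

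Correlations across the 14 arrays follow these orders, and since all probes share the same arrays and the same groups they are descriptions only. The UGT2B17 probes correlated with each other at r of 0.95 to 0.98. The 2 UGT2B11 probes reached r = 0.76 with each other, whereas ILMN_1810233 reached 0.98 with ILMN_2048414 of UGT2B15, and ILMN_2162819 reached 0.98 with the UGT2B28 probe. The UGT2B15 probes correlated at 0.79. The lowest value among the 9 probes was 0.39.

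**Figure D4:**
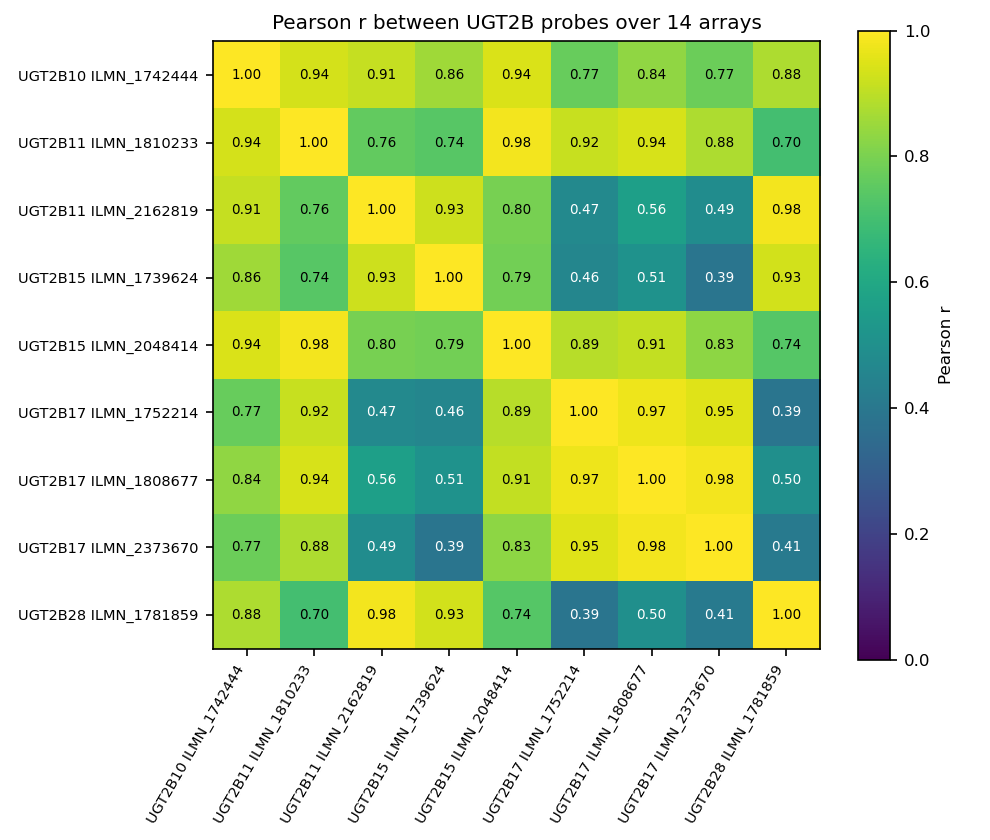
Pearson's r of log2 level between the 9 UGT2B probes over the 14 arrays is shown as colour and number, with rows and columns in the same order. UGT2B17 forms one block at 0.95 to 0.98, and the probes of UGT2B11 and of UGT2B15 match probes of other members more closely than each other.

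The 5 genes with the pattern most like the UGT2B17 probe ILMN_1808677, by Pearson's r over 14 arrays among 4397 candidate probes, were MMP7 at 0.996, SMAGP at 0.993, NAP1L1 at 0.993, IGF1 at 0.989 and EFHC2 at 0.988. MMP7, a secreted matrix protease, changed by -0.98 in LNCaP (limma adjusted p = 6.63e-05) and by -3.42 in LNCaP-abl (limma adjusted p = 4.89e-10). IGF1, the insulin-like growth factor, changed by -0.73 (limma adjusted p = 0.000538) and -2.70 (limma adjusted p = 3.86e-09). All 5 were 2.00 to 2.55 higher in LNCaP-abl controls than in LNCaP controls on the log2 scale. The 5 were picked by likeness over these same 14 arrays. Their changes and p-values therefore follow from that choice and are descriptions only.

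Other genes of the route that leads to or away from androgen glucuronides are given from lists, each gene by its brightest kept probe. Of 15 other UGT genes, 3 were tested. UGT8, which makes galactosylceramide, fell in LNCaP by 1.26 and in LNCaP-abl by 0.70, with log2 changes of -1.26 (limma adjusted p = 9.25e-05) and -0.70 (limma adjusted p = 0.00335). UGT1A3, which conjugates bile acids and estrogens, changed by -0.06 in LNCaP and by 0.76 in LNCaP-abl (limma adjusted p = 0.0118), a call lost with H2O alone as the control (0.56, limma adjusted p = 0.112) and without LNCaP-abl dilazep replicate 2 (0.67, limma adjusted p = 0.052). In LNCaP-abl 1 of 4 control arrays detected UGT1A3. UGT1A6 was detected on 0 of 7 LNCaP arrays and passed in neither line. The UGT1A genes share their 3′ exons, so a UGT1A probe may not tell them apart.

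The list named UDP-glucuronate supply and cleavage held 10 genes, of which 9 were tested. It includes nucleotide sugar transporters, Golgi nucleotidases and GUSB, which cleaves finished glucuronides. In LNCaP 2 rose and 1 fell, and in LNCaP-abl 3 rose and 1 fell, with list medians of -0.11 and 0.12. Those are 3 and 4 of 9 called, near the 32.0% and 35.9% called among all tested probes. UGDH, which oxidizes UDP-glucose to UDP-glucuronate, had changes of -0.11 and -0.01 that did not pass (limma adjusted p = 0.408 and 0.935), and was 1.02 higher in LNCaP-abl controls (limma adjusted p = 1.81e-06). PGM1, phosphoglucomutase, rose by 1.16 in LNCaP and 1.51 in LNCaP-abl (limma adjusted p = 6.18e-06 and 1.69e-07). SLC35D2, a nucleotide sugar transporter, rose by 0.79 and 1.25, and 2 of 4 LNCaP-abl control arrays detected it. CANT1, a nucleotidase of the Golgi, changed by -0.85 in LNCaP (limma adjusted p = 0.000727) and by -0.46 in LNCaP-abl (limma adjusted p = 0.0245), and the latter call was lost with DMSO alone as the control (-0.39, limma adjusted p = 0.112). It was also lost without LNCaP-abl H2O replicate 3 (-0.42), DMSO replicate 3 (-0.43), dilazep replicate 2 (-0.46) or dilazep replicate 3 (-0.43). ENTPD4, a Golgi nucleotidase too, rose by 0.74 in LNCaP-abl (limma adjusted p = 0.00568).

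Androgen synthesis and inactivation numbered 38 genes, of which 19 were tested. In LNCaP 6 rose and 2 fell, and in LNCaP-abl 3 rose and 3 fell, with fitted list medians of 0.29 and 0.23. Those are 8 and 6 of 19 called, against 32.0% and 35.9% of all tested probes. HSD17B14, a hydroxysteroid dehydrogenase, was detected on 3 of 3 LNCaP dilazep arrays and on 0 of 4 LNCaP control arrays, so that it was at least 2.92-fold higher with dilazep (fitted limma adjusted p = 5.2e-07). No LNCaP-abl array detected it. CYP3A5, which hydroxylates testosterone, rose by 1.70 in LNCaP (limma adjusted p = 8.88e-06), where 3 of 4 control arrays detected it, and was detected on 2 of 7 LNCaP-abl arrays. HSD17B11 changed by -1.72 in LNCaP (limma adjusted p = 2.14e-05) and by 0.36 in LNCaP-abl (limma adjusted p = 0.137). HSD17B6, which oxidizes androstanediol back to dihydrotestosterone, fell in both. In LNCaP 0 of 3 dilazep arrays detected it, a level at least 2.04-fold lower than in the controls (fitted limma adjusted p = 0.000158). In LNCaP-abl 1 of 3 did, with a fitted change of -0.83 (limma adjusted p = 0.00261). SRD5A1, a steroid reductase that makes dihydrotestosterone, rose by 1.06 in LNCaP-abl (limma adjusted p = 7.24e-05) and had 0.34 in LNCaP. DHRS11 changed by -0.75 and HSD17B4, a peroxisomal enzyme, by 0.56 in LNCaP-abl (limma adjusted p = 7.21e-05 and 0.000735).

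Sulfation, the other main conjugation of steroids, and export made a list of 20 genes, of which 9 were tested. In LNCaP 4 rose and 2 fell, and in LNCaP-abl 5 rose and 1 fell, with list medians of 0.12 and 0.34. Those are 6 and 6 of 9 called, against 32.0% and 35.9% of all tested probes. SULT2B1, which sulfates cholesterol and pregnenolone, changed by -0.66 in LNCaP (limma adjusted p = 0.00264) and by -1.78 in LNCaP-abl (limma adjusted p = 6.41e-07). SULT1A1, a phenol sulfotransferase, rose by 1.13 in LNCaP (limma adjusted p = 0.000626) and had 0.09 in LNCaP-abl. ABCC4, an exporter of steroid conjugates, changed by -0.95 in LNCaP (limma adjusted p = 1.18e-05) and by -0.20 in LNCaP-abl (limma adjusted p = 0.101). ABCC5, a related exporter, rose by 0.80 and 0.68 (limma adjusted p = 7.98e-05 and 0.000126). SUMF1, which activates sulfatases, rose by 0.59 and 0.57 (limma adjusted p = 0.00134 and 0.00116), and SLC35B3, a carrier of the sulfate donor, rose by 0.86 in LNCaP-abl (limma adjusted p = 0.000549).

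Transcription factors known from UGT2B promoters or from prostate and liver cells numbered 23, of which 7 were tested. In LNCaP 1 rose and 2 fell, and in LNCaP-abl 1 rose and 3 fell. Those are 3 and 4 of 7 called, against 32.0% and 35.9% of all tested probes. GATA2 had a change of 0.06 in LNCaP (limma adjusted p = 0.73) and of -0.93 in LNCaP-abl (limma adjusted p = 2.66e-05). HOXB13, a homeobox factor of prostate, had 0.11 and -1.15 (limma adjusted p = 0.571 and 1.31e-05). CEBPA changed by -1.05 in LNCaP-abl (limma adjusted p = 2.36e-05), and its LNCaP change of -0.35 (limma adjusted p = 0.0468) was lost under median scaling (-0.25, limma adjusted p = 0.189) and without any array of LNCaP in turn other than H2O replicate 3, with changes from -0.41 to -0.25.

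FOXA1, a forkhead factor of prostate epithelium, had -0.02 in LNCaP (limma adjusted p = 0.923), which turned to 0.11 under median scaling, and 0.31 in LNCaP-abl (limma adjusted p = 0.0222), a call lost under that scaling (0.17, limma adjusted p = 0.242) and without LNCaP-abl H2O replicate 2 (0.28), DMSO replicate 3 (0.26), dilazep replicate 2 (0.29) or dilazep replicate 3 (0.31). AHR, the aryl hydrocarbon receptor, rose by 0.88 in LNCaP (limma adjusted p = 0.000828). NFE2L2, which drives detoxification genes, changed by -0.43 in LNCaP (limma adjusted p = 0.0087), and that call was lost under median scaling (-0.34, limma adjusted p = 0.0589). Whether any of these factors had a part in the fall of UGT2B transcripts was not tested.

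**Figure D5:**
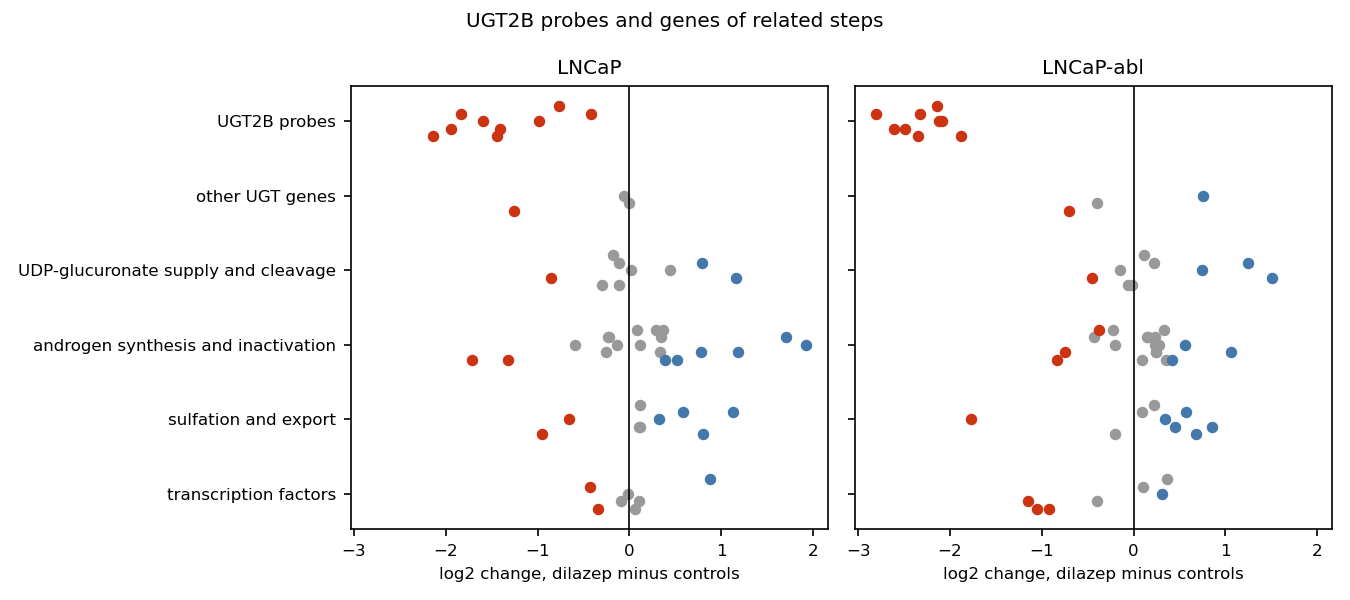
Each point is the log2 change with dilazep of a UGT2B probe or of a gene of the 5 lists, with LNCaP left and LNCaP-abl right. Red marks calls lower, blue calls higher and grey no call at an adjusted p of 0.05; UGT2B is the row in which all points are red in both lines, while each list holds points on both sides of 0 in LNCaP-abl.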

How the data were processed

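Total RNA was labelled and hybridised to 14 Illumina BeadChip arrays. Per the file headers, the main deposited table gives each probe a linear intensity on every array, with its detection p-value. Its values show no subtraction or scaling. The authors also deposited log2-scale processed values of 22912 probes. The submitters' processing notes name lumi, and neither its version nor the transform and filter is given in the sources used here. Columns were matched to samples by title. Of 47422 listed probes, 99 repeat an earlier listing exactly. No array carries a count of reads, and the number of arrays limits the precision.

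Signals were corrected with normexp with the negative control level taken from the detection p-values (offset 16), quantile normalized and log2 transformed in limma 3.58.1 under R 4.3.3. Probes detected (p under 0.05) on at least 2 arrays were kept. One mean per group was fitted by lmFit and eBayes over all 14 arrays, each probe by itself, with H2O and DMSO weighted equally, and tests were two-sided. The fit was tested on simulated data. Calls rest on an adjusted p under 0.05, by Benjamini-Hochberg over 24894 probes. Probes were named from the platform annotation, in which 16501 have 1 symbol, 5 have several and 6406 have none, with symbols updated by Entrez identifier.

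The 7 member names, the gene lists and the tests were chosen with earlier results of these data known. For a list gene the kept probe of highest mean level stands. Of each list, at most 4 genes with the smallest p in a comparison are named, with FOXA1 and UGDH always. Pattern likeness is Pearson's r among named probes with an SD of at least 0.5. Alternatives changed the correction, the scaling, the offset, the source of values, the detection filter, the probes tested, the variance model, the control group, the groups fitted, the replicate block and each array in turn. They were also applied to the pathway, likeness and marker genes, a choice made after seeing the data. Promoters and positions are RefSeq's for GRCh38.p14. Some list genes and promoter motifs are not reported here.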

Additional observations from a re-analysis of the deposited data

Results flagged for a closer look

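The change with dilazep differed between the lines, by the test of the difference itself, at 6 of 9 UGT2B probes, where 22.6% of all tested probes were called in either direction and 11.3% lower. LNCaP-abl minus LNCaP came to -2.39, -1.37 and -1.10 at the UGT2B17 probes ILMN_2373670, ILMN_1808677 and ILMN_1752214, to -1.09 at UGT2B10 and to -0.91 and -0.53 at the UGT2B11 probes ILMN_1810233 and ILMN_2162819 (limma). Each line's change has its own control arrays, and the control levels of UGT2B17 differed between the lines as well.

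Among the 18 sets of 4 control arrays (9 probes in 2 lines), 3 held an array whose gap to the nearest other array was most of the whole range. Chance flags about 1 in 20 such sets. LNCaP H2O replicate 1 was low at UGT2B11 ILMN_2162819, at 10.34. LNCaP-abl DMSO replicate 1 was high at UGT2B11 ILMN_1810233, at 12.55, and low at UGT2B28, at 8.92. That array was the highest of its 4 at 6 probes and the lowest at 2.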

How the results depend on the processing

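Every UGT2B probe kept a lower value with dilazep in both lines under all alternatives run, and 169 of 171 alternative values in LNCaP and 171 of 171 in LNCaP-abl kept their side of the threshold too. The count of UGT2B probes called was 8 or 9 in LNCaP, 9 in LNCaP-abl, 5 to 8 for the difference, 7 to 9 between controls and 3 to 5 with dilazep. Calls over all 24894 probes moved as well. For the difference, 8 of 9 were lower under median scaling, where 4492 of all probes were called lower, and with the intensity trend, where 3221 were (2801 in the main fit). The 7 between controls came with H2O alone, where 6066 of all probes were called (8970 with both vehicles). With DMSO alone as the control, all probes called came to 3531 for the difference (5619 with both vehicles) and to 5682 between controls (8970 with both).

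Signs that turned all belong to values that had not passed. Between the lines with dilazep, median scaling gave -0.14 at UGT2B11 ILMN_1810233, -0.038 at UGT2B15 ILMN_2048414 and -0.020 at UGT2B17 ILMN_1808677. UGT2B17 ILMN_2373670 gave 0.0065 with the replicate block and -0.057 to 0.021 without 1 array, positive without LNCaP dilazep replicate 2 (0.017) and LNCaP-abl dilazep replicate 1 (0.021). For the difference, UGT2B28 gave 0.034 in the authors' processed values and UGT2B15 ILMN_1739624 gave -0.11 with DMSO alone. FOXA1 in LNCaP gave 0.11 under median scaling, 0.023 with the replicate block, 0.046 with H2O alone and -0.061 to 0.022 without 1 array, positive without LNCaP H2O replicate 3 and dilazep replicate 4. UGDH in LNCaP-abl gave 0.014 with DMSO alone and -0.054 to 0.027 without 1 array, positive without H2O replicate 3, DMSO replicate 3 and dilazep replicate 3. The cause was not tested.

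Leaving out 1 array at a time gave 6 to 7 UGT2B probes for the difference and no other count than the main one elsewhere, and for all probes 6615 to 7317 calls in LNCaP, 7836 to 8394 in LNCaP-abl, 4543 to 5658 for the difference, 7710 to 8297 between controls and 9091 to 9665 with dilazep. Of 1008 alternative values of pathway, likeness and marker genes, 961 kept direction and side, 38 lost their call and 9 turned sign.

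Replicate numbers in the titles were not seen to pair the arrays. The 2 arrays of a control group deviate by equal and opposite amounts, so pairs of arrays are not independent and cannot exclude a pairing. Deviations from group means correlated at a median r of 0.0095 in 22 pairs of arrays with the same number, from -0.17 to 0.19, and of -0.0049 in 59 other pairs. With the replicate block the UGT2B counts were 9 in LNCaP, 9 in LNCaP-abl, 6 for the difference, 9 between controls and 4 with dilazep, as without it. Calls over all probes did change. They came to 6004 in LNCaP (7969 without the block), 8954 in LNCaP-abl (8938) and 4343 for the difference (5619). Between controls they came to 9080 (8970), and between the lines with dilazep to 8940 (10337). Detection limits the dim UGT2B15 probe, and 2 or 3 arrays per group limit all values.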
